A study of Mus musculus with 6 samples.

Results

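Transcripts of 3 embryonic globins, Hbb-y, Hbb-bh1 and Hba-x, and of 6 genes of red cell development, Gata1, Klf1, Alas2, Slc4a1, Epor and Tfrc, were followed in mouse thymus. These 9 genes were matched by symbol among the 24054 genes of the deposited table. The globins were chosen by their higher counts in the RANKL libraries of this same comparison, so their values are given as a description with no test. The other 6 were listed for their roles, and 5 of them had enough reads to be tested. Messenger RNA of whole thymus had been sequenced in 3 libraries from mice carrying both K5-rtTA and TetO-RANKL and in 3 from control mice, described as monogenic, with the single transgene, strain and sex not stated in the labels. In the double transgenic animals the keratin 5 promoter, active in basal and medullary epithelium, drives a doxycycline-dependent activator of RANKL, the TNF family cytokine encoded by Tnfsf11. All mice of both groups received doxycycline in food and water, for 2 weeks at 9 weeks of age per one label and for 1 week at 8 weeks per another. The question was which messages of the thymus differ once RANKL is induced, with RANKL over control as the single comparison.

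Haemoglobin is a tetramer of alpha-like and beta-like chains, each holding a haem group. In the mouse embryo, primitive red cells of the yolk sac use Hba-x for the alpha-like chain (zeta) and Hbb-y and Hbb-bh1 for the beta-like chains, and definitive red cells later use the adult genes that lie next to them. The transcription factors Gata1 and Klf1 drive the erythroid programme, and the erythropoietin receptor Epor keeps precursors alive. Tfrc brings iron into the cell, Alas2 starts haem synthesis and Slc4a1 is the main anion exchanger of the red cell membrane.

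The induced gene itself, Tnfsf11 (chromosome 14, 78277446 to 78308043 in GRCm38), had 3334, 4812 and 2390 CPM (reads of the gene relative to the scaled library total) in RANKL replicates 1, 2 and 3, against 6.01, 6.34 and 8.89 CPM in the controls. Library totals ran from 18254870 to 25357060 reads, and 3 reads, taken as the floor, were worth 0.118 to 0.164 CPM. Thymocyte transcripts were present in both groups, with Rag1 at 6.19 to 160 CPM in RANKL and 2331 to 3946 CPM in control libraries. Of 16096 genes tested with edgeR's quasi-likelihood test, 33.8% were called higher and 29.6% lower in RANKL, 63.4% in all, so a call in either direction was common in this comparison. In whole tissue, a change in the number of cells of a type and a change in RNA per cell cannot be told apart.

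The beta-like genes lie together on the reverse strand of chromosome 7, Hbb-y at 103851754 to 103853207 and Hbb-bh1 at 103841638 to 103843162, upstream of the adult genes Hbb-bs and Hbb-bt (RefSeq, GRCm38.p6). Hba-x lies on the forward strand of chromosome 11, at 32276600 to 32278116, ahead of Hba-a1 and Hba-a2. The 250 bases before the RefSeq start of Hbb-y, Hba-x, Klf1 and Alas2 are shown. These windows were chosen for holding letters of erythroid control elements of known type, in genes that differed in their pattern across libraries. Capitals mark matches, on either strand, to the GATA element, to CACCC, the core letters of Klf1 sites, and to CCAAT, and matches to TATAA on the gene's strand. The GATA element was searched as AGATAA or as TGATAA, each also with G as its last base. The windows are chr7:103853208-103853457 (reverse strand) for Hbb-y, chr11:32276350-32276599 for Hba-x, chr8:84901732-84901981 for Klf1 and chrX:150547167-150547416 for Alas2, the last 3 on the forward strand, all from RefSeq in GRCm38.p6.
Hbb-y: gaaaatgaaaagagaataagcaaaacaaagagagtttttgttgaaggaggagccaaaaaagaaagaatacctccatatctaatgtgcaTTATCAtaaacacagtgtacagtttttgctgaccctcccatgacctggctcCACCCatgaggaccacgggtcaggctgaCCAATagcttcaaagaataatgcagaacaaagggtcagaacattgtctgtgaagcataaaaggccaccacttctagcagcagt
Hba-x: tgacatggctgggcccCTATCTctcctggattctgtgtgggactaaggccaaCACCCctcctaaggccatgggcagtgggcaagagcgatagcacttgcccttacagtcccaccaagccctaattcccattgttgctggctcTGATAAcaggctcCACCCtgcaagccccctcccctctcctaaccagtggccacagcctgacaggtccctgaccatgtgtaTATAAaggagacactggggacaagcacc
Klf1: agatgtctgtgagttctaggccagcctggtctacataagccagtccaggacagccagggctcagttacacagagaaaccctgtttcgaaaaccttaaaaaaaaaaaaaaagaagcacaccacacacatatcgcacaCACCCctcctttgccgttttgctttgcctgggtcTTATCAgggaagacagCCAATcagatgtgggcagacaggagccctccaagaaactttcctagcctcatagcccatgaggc
Alas2: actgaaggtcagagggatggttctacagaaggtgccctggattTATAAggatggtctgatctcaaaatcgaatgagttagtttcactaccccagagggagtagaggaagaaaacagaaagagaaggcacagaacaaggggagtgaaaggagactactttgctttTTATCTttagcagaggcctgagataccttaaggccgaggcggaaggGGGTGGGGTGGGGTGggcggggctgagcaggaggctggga

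All 4 windows held a GATA match and a CACCC match, which follows from their choice. Hba-x had 2 GATA matches, at bases -234 to -229 and -108 to -103 from its start, and the single one of Hbb-y lay at -162 to -157. The CACCC match nearest the start lay at -111 to -107 in Hbb-y and at -95 to -91 in Hba-x. Among 32851 mouse promoter windows of the same length, 26.5% held a GATA match, 52.0% a CACCC match, 33.8% a CCAAT match and 16.0% a TATAA match. Windows of Epor, Gata1 and Tfrc were also read, and of these only that of Epor held a GATA match, while all 3 held CACCC. These are matches of letters and do not show that a factor was bound.

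Hbb-y, the epsilon-y chain, had 4.52, 2.07 and 4.85 CPM in RANKL replicates 1, 2 and 3, against 0.264, 0.103 and 0.191 CPM in control replicates 1, 2 and 3. The means were 3.82 ± 1.52 in RANKL and 0.186 ± 0.0804 in control libraries (mean ± SD, n = 3 each), a ratio of means of 20.5. The groups did not overlap, and with 238 reads in RANKL and 11 in control libraries the ratio of summed reads, 19.9, came with a 95% exact counting interval of 10.9 to 40.5. Such intervals cover counting error only. For the globins, chosen for their rise, they are no test of it.

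Hba-x, the zeta chain, had 79, 41 and 89 reads in RANKL libraries and 9, 5 and 4 in control libraries. Its mean was 3.37 ± 1.48 CPM in RANKL and 0.308 ± 0.148 CPM in control libraries, a ratio of 10.9 (counting interval of the summed reads 6.60 to 18.4). Hbb-bh1, the beta-h1 chain, had 53, 25 and 56 reads in RANKL libraries and 8, 4 and 2 in control libraries. Its mean was 2.17 ± 1.00 CPM in RANKL and 0.241 ± 0.166 CPM in control libraries, a ratio of 9.00 (counting interval 5.07 to 16.6). All 3 transcripts were lowest in replicate 2 within RANKL, yet each RANKL library lay above every control library for each of them.

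Together the 3 embryonic globins took 216, 117 and 248 reads in RANKL libraries and 22, 11 and 10 in control libraries. Their summed level was 9.36 ± 3.98 CPM in RANKL and 0.735 ± 0.371 CPM in control libraries, a ratio of 12.7. This is a trace of the tissue's messenger RNA, at most 0.00121% of the reads of any RANKL library. Within RANKL libraries the proportions were even, with Hbb-y at 38.9% to 43.6% of the summed CPM, Hba-x at 35.0% to 36.6% and Hbb-bh1 at 21.4% to 24.5%. In control libraries Hbb-y made up 18.2% to 40%, from 10 to 22 reads a library, and the difference in proportions was not tested.

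Per kilobase of exon (GENCODE M21), Hbb-y stood at 6.03 ± 2.40 CPM per kb in RANKL and 0.294 ± 0.127 in control libraries. Hba-x stood at 3.59 ± 1.57 and Hbb-bh1 at 3.54 ± 1.64 CPM per kb in RANKL libraries, and these 2 did not differ beyond their spread. In control libraries Hba-x was at 0.328 ± 0.158 and Hbb-bh1 at 0.393 ± 0.271 CPM per kb. The summed beta-like level per kb was 2.60, 2.78 and 2.68 times that of Hba-x in RANKL replicates 1, 2 and 3, against 2.18, 1.82 and 2.25 times in the controls. These ratios are built from globins chosen for their rise, with the control values resting on 10 to 22 reads each, and their difference was not tested.

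**Figure D1:**
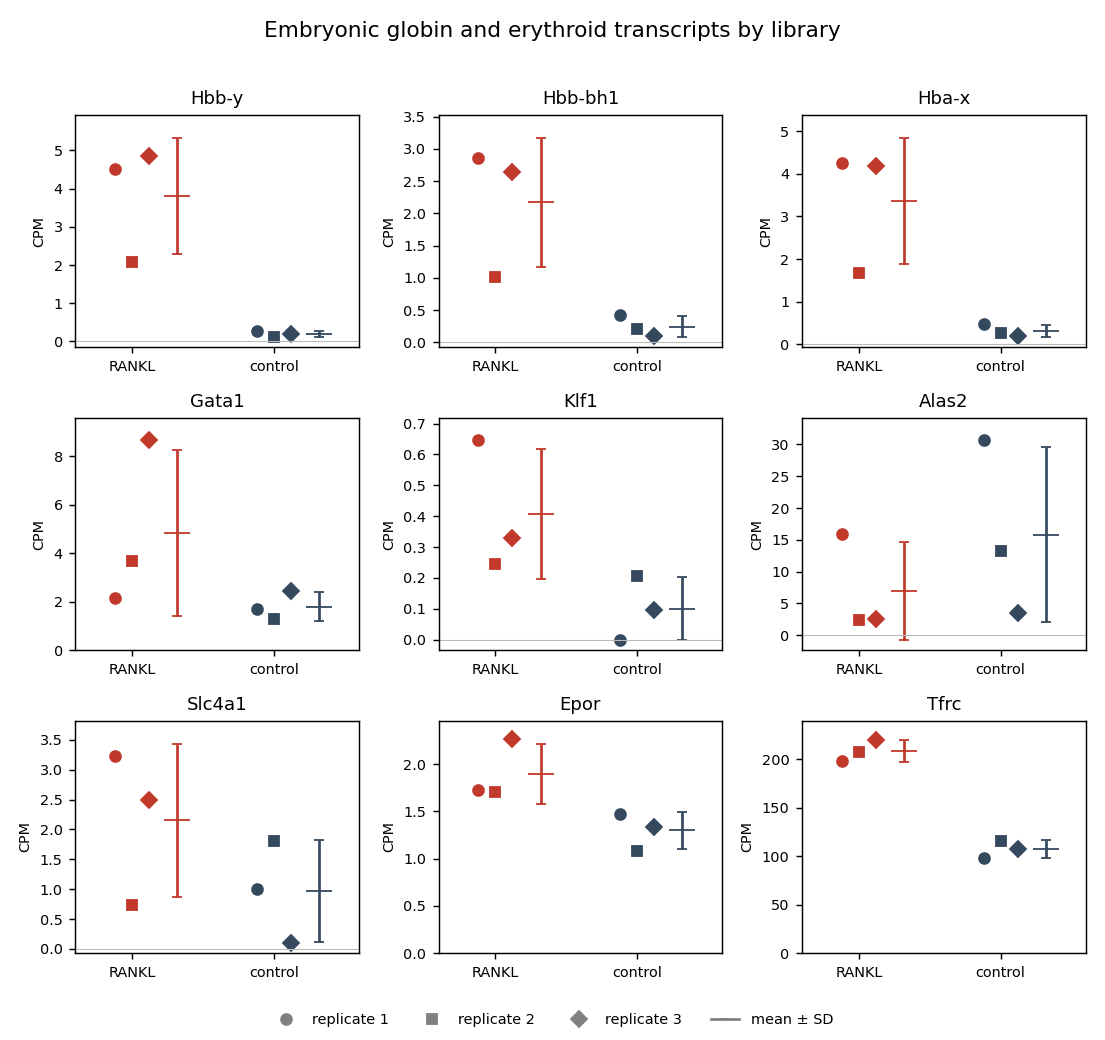
Level in CPM (vertical axes, linear, each with its own range) of the 9 genes in every library, RANKL left of control, with the mean ± SD of 3 libraries beside the points. The 3 embryonic globins, Klf1, Epor and Tfrc do not overlap between groups, whereas Gata1, Alas2 and Slc4a1 do.

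The adult globin genes were listed at 0 in all libraries. This held for Hba-a1, Hba-a2, Hbb-b1, Hbb-b2, Hbb-bs and Hbb-bt, in RANKL and control thymus alike, although red cells in the vessels of any tissue carry these messages. In GENCODE M21 transcripts, 72.3% of the 50-base stretches of Hba-a1 and 89.3% of those of Hba-a2 recur in another gene, as do 53.2% of those of Hbb-bs and 58.3% of those of Hbb-bt. Hbb-y, Hbb-bh1 and Hba-x share 0% of theirs with transcripts of any other gene. Only exact stretches of annotated transcripts were compared, so unique placement of reads in the genome was not tested. Read length and the treatment of reads with several matches are not stated in the labels, and whether they account for the zeros was not tested. The zeros are therefore no measure of adult globin message.

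The minor globins gave few reads. Hbb-bh2, between Hbb-bh1 and the adult genes, had 1, 0 and 1 reads in RANKL and 0 in each control library. The theta genes had 2, 0 and 0 reads (Hbq1a) and 2, 0 and 3 reads (Hbq1b) in RANKL libraries, against 3, 3 and 0 and 3, 1 and 0 in control libraries. Hbq1a and Hbq1b share 36.8% and 28.3% of their 50-base stretches with another gene, so their counts are uncertain. Of the globins that are not carried by red cells, Cygb and Mb were better covered. Cygb, cytoglobin of fibroblasts, rose to 101, 61.2 and 77.8 CPM in RANKL, against 26.3, 26.4 and 22.2 CPM in control libraries (log2 fold change 1.68 ± 0.21, SE, edgeR adjusted p = 0.000102). Ngb, neuroglobin, rose by 2.39 ± 0.63 (edgeR adjusted p = 0.00801). It had 38, 19 and 16 reads in RANKL and 7, 3 and 3 reads in control libraries, near the floor of 3 reads. Mb, myoglobin of muscle, had 9.47, 3.98 and 1.18 CPM in RANKL and 38.4, 7.16 and 1.24 CPM in control libraries and was not called (edgeR adjusted p = 0.184).

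Of the 5 role-listed genes tested, 2 were called higher, Gata1 and Tfrc, and 0 lower, against 33.8% of all genes called higher and 29.6% lower. Counting all 9 genes, 6 had groups that did not overlap, RANKL being higher in each, against 36.1% of all genes tested, and 34.1% of all genes had RANKL lower without overlap. These 6 were the 3 globins, for which this follows from their choice, and Klf1, Epor and Tfrc.

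Gata1, the zinc finger factor of red cells, platelets, mast cells and eosinophils (chromosome X, 7959260 to 7976663, reverse strand), had 2.15, 3.70 and 8.67 CPM in RANKL replicates 1, 2 and 3, against 1.69, 1.29 and 2.44 CPM in control libraries. Replicate 3 was by far the highest, and RANKL replicate 1 lay below control replicate 3, so the groups overlapped. The log2 fold change was 1.42 ± 0.52 (edgeR adjusted p = 0.0360). Without RANKL replicate 3 it was 0.73 (adjusted p = 0.218), and the call was also lost without control replicate 1 (0.0873), 2 (0.121) or 3 (0.0509). Library titles fall into number ranges, which put RANKL replicate 1 with control replicate 1, RANKL replicates 2 and 3 with control replicate 3, and control replicate 2 alone. What the ranges stand for is not stated. With a block for the range the log2 fold change of Gata1 was 0.935 and not called (edgeR adjusted p = 0.162). Control replicate 2, alone in its range, adds nothing to a fold change fitted with this block. Within ranges Gata1 had 2.15 CPM in RANKL against 1.69 CPM in control, and 3.70 and 8.67 CPM in RANKL against 2.44 CPM in control libraries.

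Klf1, the erythroid Krüppel-like factor (chromosome 8, 84901982 to 84905291), had 12, 6 and 7 reads in RANKL and 0, 4 and 2 reads in control libraries, too few to pass the low-count filter. The ratio of summed reads was 3.84, with a counting interval of 1.54 to 11.4, and the ratio of means, 4.04, was 2.01 on the log2 scale and 3.06 without control replicate 2 or 1.41 without control replicate 1. At 0.266 ± 0.138 CPM per kb in RANKL and 0.0657 ± 0.0674 in control libraries it stood below all 3 embryonic globins per kb in RANKL libraries.

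Alas2, the erythroid form of the first haem enzyme (chromosome X, 150547417 to 150570622), had 15.9, 2.36 and 2.59 CPM in RANKL replicates 1, 2 and 3, against 30.7, 13.3 and 3.49 CPM in control replicates 1, 2 and 3. The 6 libraries spanned 13.0-fold, the groups overlapped, and the log2 fold change of -1.20 ± 0.86 was not called (edgeR adjusted p = 0.246). Without RANKL replicate 1 it was called, at -2.61 (adjusted p = 0.0119), and without control replicate 1 it was -0.30 (adjusted p = 0.797). With the title block, which gives no weight to control replicate 2, it was called, at -0.71 (edgeR adjusted p = 0.0430). Within ranges Alas2 had 15.9 CPM in RANKL against 30.7 CPM in control, and 2.36 and 2.59 CPM in RANKL against 3.49 CPM in control libraries. In both libraries whose titles hold the lowest numbers, RANKL replicate 1 and control replicate 1, Alas2 was the highest of its group, and Mb was too. Relative to the embryonic globin sum, Alas2 stood at 1.37, 0.496 and 0.222 times in RANKL libraries and at 26.4, 23.4 and 7.30 times in control libraries, a description that uses the globins' choice.

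Slc4a1, band 3 of the red cell membrane (chromosome 11, 102348820 to 102365281, reverse strand), had 3.23, 0.732 and 2.50 CPM in RANKL and 1.00, 1.80 and 0.0956 CPM in control libraries. Its log2 fold change of 1.15 ± 0.79 was not called (edgeR adjusted p = 0.229), and control replicate 3 held only 2 reads. With the title block it was 2.51 and called (edgeR adjusted p = 0.0333). That fit gives no weight to control replicate 2, the highest control, and rests in part on the 2 reads of control replicate 3. Within ranges Slc4a1 had 3.23 CPM in RANKL against 1.00 CPM in control, and 0.732 and 2.50 CPM in RANKL against 0.0956 CPM in control libraries. Without control replicate 2 and without the block, the log2 fold change was 1.95 and not called (edgeR adjusted p = 0.104). Epor (chromosome 9, 21958897 to 21963576, reverse strand) had 1.72, 1.71 and 2.26 CPM in RANKL and 1.48, 1.08 and 1.34 CPM in control libraries. Although its groups did not overlap, the log2 fold change of 0.54 ± 0.36 was not called (edgeR adjusted p = 0.210).

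Tfrc, the transferrin receptor that most dividing cells use (chromosome 16, 32608896 to 32632794), was the most abundant of the 9, at 198, 207 and 220 CPM in RANKL against 98.0, 116 and 108 CPM in control libraries. It rose by 0.96 ± 0.15 on the log2 scale, a ratio of means of 1.94 (edgeR adjusted p = 0.000407), and the replicates of each group lay close together. Genes of the cell cycle list fell over the same comparison, 12 of 12, against 29.6% of all genes tested. Mki67 was at 128 ± 8.55 CPM in RANKL and 622 ± 232 CPM in control libraries (log2 fold change -2.28, edgeR adjusted p = 0.000104). Top2a fell by 2.04.

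The wider erythroid programme was read from 7 lists, including those for iron handling and for haem clearance, with 94 genes, of which 86 were tested. Of these, 39 (45.3%) were called higher and 17 (19.8%) lower, against 33.8% and 29.6% of all genes tested. The median log2 fold change was 0.51, against -0.02 over all genes tested. Without 1 library the counts ran from 32 to 39 higher and from 15 to 19 lower. The plot of fold changes by list shows calls in both directions on each list. No difference between lists was tested.

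**Figure D2:**
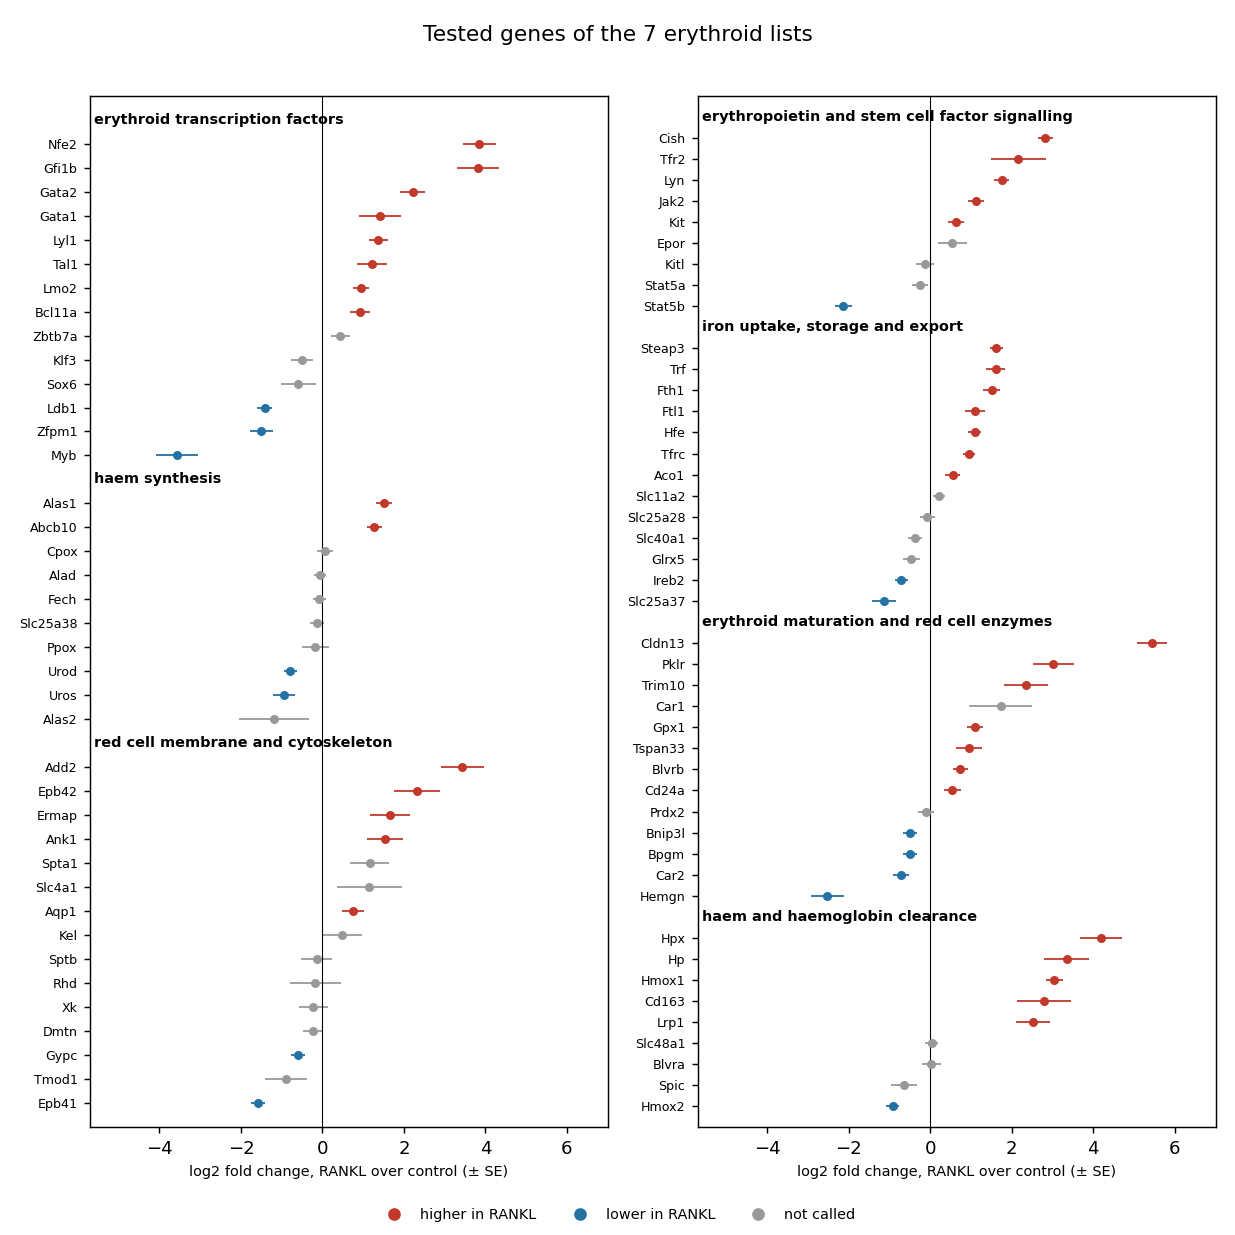
Log2 fold change of RANKL over control (horizontal axis) with its standard error for tested genes of the 7 erythroid lists, with genes called higher in red, lower in blue and not called in grey. The highest transcription factor, Nfe2, stands at 3.85 and the highest clearance gene, Hpx, at 4.19, whereas most of the haem synthesis genes drawn are grey.

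Among erythroid transcription factors 8 of 14 tested genes (57.1%) were higher and 3 (21.4%) lower, against 33.8% and 29.6% of all genes. Nfe2, which acts at globin enhancers and in platelet formation, had 7.64, 19.8 and 18.1 CPM in RANKL libraries, lowest in replicate 1, unlike the globins. Its mean was 15.2 ± 6.57 CPM in RANKL, against 1.05 ± 0.142 CPM in control libraries (log2 fold change 3.85 ± 0.41, edgeR adjusted p = 4.58e-05). Gfi1b, a repressor of the red cell and platelet lineages, had 4.95, 2.44 and 4.38 CPM in RANKL and 0.422, 0.258 and 0.143 CPM in control libraries, a rise of 3.82 ± 0.51 (edgeR adjusted p = 0.000174), with the same low replicate 2 as the globins. Gata2, the factor of progenitors and mast cells, rose by 2.21 ± 0.31 and Lmo2, a bridge in the Gata1 complex, by 0.95 ± 0.20. Ldb1, the dimerising partner of Lmo2 in that complex, fell to 124 ± 23.2 CPM in RANKL, against 331 ± 44.2 CPM in control libraries (log2 fold change -1.42). Zfpm1, the cofactor of Gata1, fell to 21.2 ± 2.90 CPM in RANKL, against 60.2 ± 26.1 CPM in control libraries. Myb, shared by progenitors and thymocytes, fell by 3.57, and by 4.28 without RANKL replicate 3.

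Of 11 tested genes of haem synthesis, 2 (18.2%) were higher, 2 (18.2%) lower and 7 not called, against 33.8% and 29.6% of all genes called higher and lower. Alas1, the form of the first enzyme used outside red cells, rose to 196 ± 21.1 CPM in RANKL, against 69.2 ± 14.2 CPM in control libraries (edgeR adjusted p = 0.000127), while Alas2 did not pass. Abcb10, a mitochondrial membrane transporter that erythroid cells need, rose by 1.27 ± 0.19, and Urod, a later enzyme of the path, fell by 0.80. The enzymes Alad, Cpox, Ppox and Fech were not called.

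Of 15 tested genes of the red cell membrane, 5 (33.3%) were higher and 2 (13.3%) lower. The share higher was close to the 33.8% of all genes, and 29.6% of all genes were lower. Add2, beta adducin of the spectrin junction, had 4.41, 1.87 and 2.73 CPM in RANKL and 0.422, 0.206 and 0.191 CPM in control libraries (log2 fold change 3.44 ± 0.53, edgeR adjusted p = 0.000382). Epb42, protein 4.2, which ties band 3 to the skeleton, had 26, 18 and 31 reads in RANKL and 2, 4 and 8 in control libraries and rose by 2.32 ± 0.56 (edgeR adjusted p = 0.00531). Epb41, protein 4.1, which many cells make, fell by 1.58 on the log2 scale.

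Signalling genes were higher in 5 (55.6%) and lower in 1 (11.1%) of 9, against 33.8% and 29.6% of all genes. Cish, a feedback inhibitor that STAT5 induces downstream of Epor and of other cytokine receptors, rose to 187 ± 15.8 CPM in RANKL, against 26.4 ± 4.77 CPM in control libraries (log2 fold change 2.83 ± 0.18, edgeR adjusted p = 5.53e-06). The tyrosine kinase Lyn rose by 1.76 ± 0.18, and Stat5b fell by 2.13. Kit, the receptor of stem cell factor, rose by 0.63 ± 0.20 (edgeR adjusted p = 0.0208), a call lost without RANKL replicate 1, control replicate 2 or control replicate 3 (0.0524 to 0.0612). Epo itself had 3, 0 and 5 reads in RANKL and 1, 1 and 0 in control libraries.

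Maturation genes were higher in 7 (53.8%) and lower in 4 (30.8%) of 13, against 33.8% and 29.6% of all genes. Cldn13, a claudin, rose to 36.7 ± 14.2 CPM in RANKL, against 0.844 ± 0.218 CPM in control libraries (log2 fold change 5.43 ± 0.37, edgeR adjusted p = 6.10e-06). Pklr, the pyruvate kinase of liver and red cells, rose by 3.02 ± 0.51. Hemgn, a nuclear protein of blood cell precursors, fell to 0.988 ± 0.438 CPM in RANKL, against 5.65 ± 0.729 CPM in control libraries, a decrease called at an edgeR adjusted p of 0.000491.

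Cell type markers place these values within the tissue. Erythroblast markers were called higher in 4 (57.1%) and lower in 1 (14.3%) of 7 tested genes, against 33.8% and 29.6% of all genes. Their summed level was 62.1, 31.6 and 41.7 CPM in RANKL and 9.38, 8.20 and 8.46 CPM in control libraries. Cldn13 took most of the RANKL sums, with 25.5 to 52.7 CPM in RANKL and 0.618 to 1.05 CPM in control libraries. Without Cldn13 the sums overlapped, at 9.3, 6.1 and 9.8 CPM in RANKL and 8.3, 7.6 and 7.6 CPM in control libraries. Hemgn took most of the control sums, with 1.40, 0.529 and 1.04 CPM in RANKL and 5.59, 4.95 and 6.40 CPM in control libraries. No marker of the list was at 0 in all libraries, and Ahsp, the alpha chain chaperone, had no row.

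Other cell types that use Gata1, Gata2, Nfe2 or Gfi1b were read beside them. Mast cell and eosinophil markers were called higher in 12 of 12, against 33.8% of all genes tested. Their summed levels were 274 to 375 CPM in RANKL and 31.1 to 50.1 CPM in control libraries. The eosinophil markers Siglecf and Ccr3 had 7.64, 21.8 and 35.7 CPM and 9.58, 28.3 and 43.5 CPM in RANKL replicates 1, 2 and 3, highest in replicate 3 as Gata1 was. In control libraries Siglecf had 0.103 to 0.264 CPM and Ccr3 2.74 to 3.49 CPM. Other eosinophil markers were lowest in RANKL replicate 2, with Epx at 4.95, 2.52 and 5.94 CPM and Il5ra at 5.04 CPM there and up to 14.8 CPM in the others. Prg2, major basic protein, had 65.0, 22.9 and 39.1 CPM in RANKL libraries, highest in replicate 1, and rose by 3.92 ± 0.48. Hdc, histidine decarboxylase, had 123, 190 and 182 CPM in RANKL libraries, highest in replicate 2. It rose by 3.64 ± 0.42, or 4.23 without control replicate 1. Megakaryocyte and platelet markers were higher in 5 of 7 (71.4%), against 33.8% of all genes tested. Their sums were 189 to 800 CPM in RANKL and 30.4 to 41.2 CPM in control libraries. Ppbp, their highest gene, took most of the RANKL sums, with 123 to 673 CPM in RANKL and 0.33 to 0.82 CPM in control libraries. The integrin Itgb3 took most of the control sums, with 28.1 to 50.5 CPM in RANKL and 22.1 to 31.4 CPM in control libraries. Ppbp rose by 8.99 ± 0.87, or 7.76 without RANKL replicate 2, and Itgb3 by 0.62 ± 0.24. The platelet glycoproteins Gp1ba and Gp5 were not called. The call of Itgb3 was lost in 4 of the 6 runs without 1 library, with limma-voom (adjusted p = 0.0512), with no low-count filter (0.0630) and with the title block (0.215). The part of these cells in the erythroid values was not tested.

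**Figure D3:**
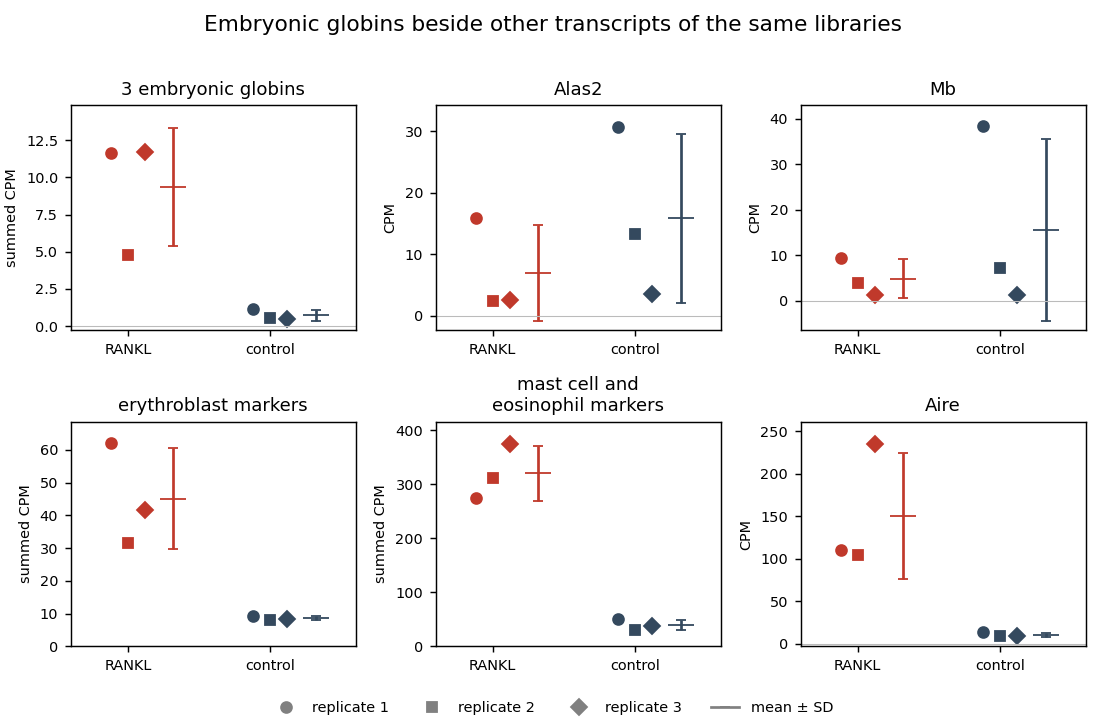
Levels by library (vertical axes in CPM or summed CPM, linear) of the 3 embryonic globins, Alas2, Mb, erythroblast markers, mast cell and eosinophil markers and Aire, RANKL left of control, with mean ± SD of 3 libraries. The globins, both marker sums and Aire separate the groups, while Alas2 and Mb overlap. The erythroblast sum separates them only with Cldn13 included.

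Medullary epithelium markers were higher in 10 of 10, against 33.8% of all genes tested. Their sums were 8635 to 10380 CPM in RANKL and 2051 to 2489 CPM in control libraries. The keratin Krt5 and the class II gene H2-Aa rose by 2.59 ± 0.21 and 1.48 ± 0.27. Aire, which lets medullary epithelium display genes of other tissues, had 110, 104 and 235 CPM in RANKL and 13.1, 8.61 and 9.37 CPM in control libraries. It was highest in RANKL replicate 3, whereas the globin sum was about equal in replicates 1 and 3, at 11.6 and 11.7 CPM, and 4.76 CPM in replicate 2. Markers of this list differed in their order among RANKL libraries. Fezf2 had 92.8, 58.1 and 94.7 CPM and H2-Aa 6029, 2941 and 5217 CPM in RANKL replicates 1, 2 and 3, lowest in replicate 2. Krt5 had 2159, 2793 and 2129 CPM, highest in replicate 2. Likeness of these markers to the globins was not tested. Double-positive thymocyte markers fell in 10 of 10, against 29.6% of all genes called lower. Their sums were 208 to 899 CPM in RANKL and 9264 to 10290 CPM in control libraries. Rag1, of antigen receptor recombination, fell by 5.21 on the log2 scale, with a log2 fold change of -6.15 without RANKL replicate 3 and -4.62 without RANKL replicate 1. Cd8a fell by 3.74. Endothelial markers were higher in 5 of 8 (62.5%), against 33.8% of all genes tested. Plvap rose by 1.54 ± 0.18, and Pecam1 was not called (log2 fold change -0.09).

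Transcripts whose profile over the 6 libraries was most like that of the globins were sought by Pearson's r of log2(CPM + 0.5) among 13377 genes, as a description. The nearest to Hbb-y were Cryaa, a lens crystallin (r = 0.9997), Sult1c2, a sulfotransferase (0.9995), and Itln1, an intestinal lectin (0.9985). Cryaa had 8.40, 4.07 and 9.52 CPM in RANKL and 0.738, 0.464 and 0.669 CPM in control libraries. Hba-x was nearest to Dmpk (0.998), Prph, a neuronal filament protein (0.9975), and Slfn5 (0.9969), and Hbb-bh1 to Dmpk (0.9971), Jph1 (0.9969) and Gfra3 (0.9967). With the group difference in every such profile, r was at least 0.95 for 1095, 817 and 560 genes beside Hbb-y, Hba-x and Hbb-bh1, so these names are a few among many.

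Genes that handle iron and haem, including outside the red cell, were read from 2 of the 7 lists. The counts given above for the 7 lists include them. Of 9 genes for the clearance of haem and haemoglobin, 5 (55.6%) were higher and 1 (11.1%) lower, against 33.8% and 29.6% of all genes, and the median of their log2 fold changes was 2.53. Hmox1, haem oxygenase 1, which breaks haem down, had 154, 205 and 165 CPM in RANKL and 23.8, 16.6 and 23.0 CPM in control libraries (log2 fold change 3.04 ± 0.20, edgeR adjusted p = 6.03e-06). Hpx, haemopexin, which binds free haem, rose by 4.19 ± 0.52, or 4.90 without control replicate 1, and Lrp1, the receptor that takes up haem with haemopexin, by 2.53 ± 0.42. Hmox2, the constitutive oxygenase, fell by 0.92.

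Haptoglobin (Hp), which binds free haemoglobin, had 135, 617 and 196 CPM in RANKL and 31.4, 20.7 and 40.9 CPM in control libraries. Its macrophage receptor Cd163 had 15.2, 98.9 and 17.8 CPM in RANKL and 6.70, 6.60 and 5.83 CPM in control libraries. Both peaked in RANKL replicate 2, as the platelet gene Ppbp did. Without that library the log2 fold changes were 2.43 in place of 3.35 for Hp and 1.38 in place of 2.79 for Cd163. Macrophage markers were higher in 10 of 10, against 33.8% of all genes tested. Their sums were 2980 to 4082 CPM in RANKL and 1407 to 1769 CPM in control libraries, and C1qa and Lyz2 rose by 1.43 and 0.72. The call of Lyz2 was lost without RANKL replicate 1 or control replicate 2. Their part in the clearance genes was not tested.

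Of 15 genes for iron uptake, storage and export, 7 (46.7%) were higher and 4 (26.7%) lower, against 33.8% and 29.6% of all genes, and the median of their log2 fold changes was 0.22. Fth1 and Ftl1, the heavy and light chains of the iron store ferritin, rose to 3445 ± 635 and 2141 ± 104 CPM in RANKL, against 1215 ± 222 and 996 ± 337 CPM in control libraries. Steap3, the reductase that acts on iron released from transferrin, rose to 52.8 ± 4.41 CPM in RANKL, against 17.2 ± 1.55 CPM in control libraries (log2 fold change 1.62 ± 0.17, edgeR adjusted p = 3.75e-05). Slc40a1, the iron exporter ferroportin, was not called (log2 fold change -0.38).

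**Figure D4:**
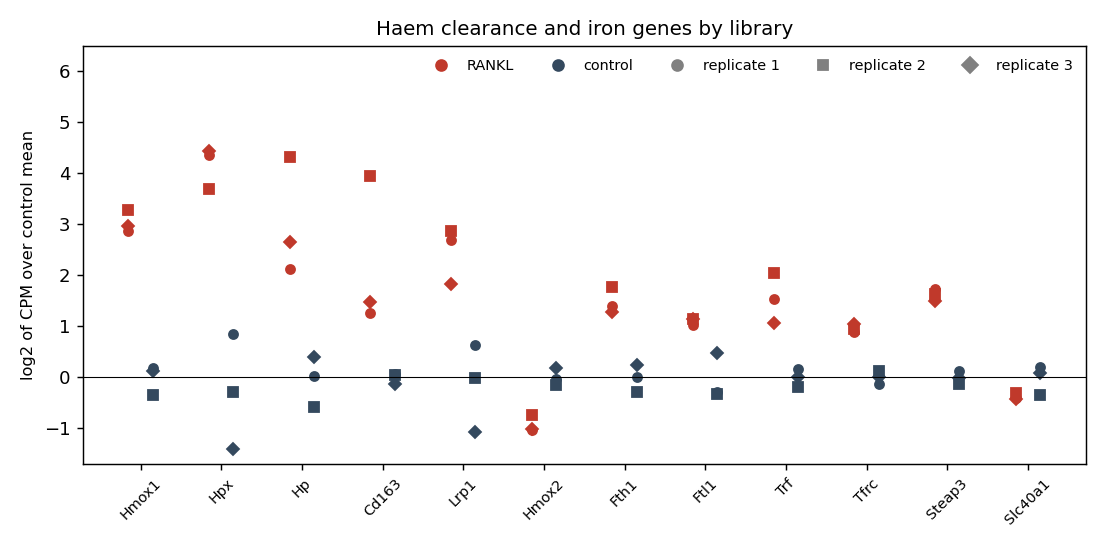
Log2 of CPM over the control mean (vertical axis) in each library for 12 genes of haem clearance and iron handling, RANKL left of control for each gene. Hmox1, Hpx and Tfrc are above 0 in all 3 RANKL libraries, Hmox2 is below it, and Hp and Cd163 are highest in RANKL replicate 2.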

How the data were processed

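The authors deposited 1 table of raw read counts per gene and library. STAR and the mm10 genome are named per the submitters' processing notes, and total RNA (250 ng) went into stranded mRNA libraries per the labels' protocols. The sources used here do not name STAR's version, the annotation, or how and on which strand reads were counted. Counts of genes that overlap or closely resemble another are therefore uncertain. Gene positions and promoter windows came from RefSeq tables of GRCm38.p6, the assembly of mm10, and exon lengths and transcripts from GENCODE M21. Hbb-bh1 and Slc4a1 had no promoter entry.

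Genes kept by filterByExpr were scaled by TMM factors and tested, two-sided, with the robust quasi-likelihood test of edgeR 4.0.16 in R 4.3.3, with Benjamini-Hochberg adjustment over all 16096 genes and a threshold of 0.05. CPM used TMM-scaled totals, and standard errors were derived from the F statistic. Of the 9 genes, 8 passed the filter. Simulated counts with known changes were used to test the scripts. No library repeated another, since pairs within a group gave 31.7 to 67.9 in chi-square over its degrees of freedom. Replicate numbers follow accession order and pair nothing. No label says that libraries are separate animals, and the p-values reflect only the spread among these libraries, which may be technical.

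The genes and lists were chosen with earlier results of these data known. Of 182 listed genes 179 had a row, 4 under an older symbol. Named were the 9 genes, the other globins, the 3 called genes with the smallest p on each pathway list, 8 defining genes, the 2 most abundant markers of each cell type, Aire, Tnfsf11 and the 3 transcripts most like each globin. Genes outside this rule (Lmo2, Zfpm1, Myb, Alad, Cpox, Ppox, Fech, Epo, Trf, Slc40a1, Hp, Cd163, Hmox2, Siglecf, Ccr3, Epx, Il5ra, Gp1ba and Gp5) were chosen after their values were seen. Fezf2 was chosen in the same way. Listed genes that are not named enter the counts of their lists, and some are not reported here. Alternatives were RLE, upper-quartile and no factors, 2 other filters, a fit without robust estimation, DESeq2 1.42.0, voom of limma 3.58.1, a block for the title number range, a run without the 45S precursor (1.06% to 1.59% of reads) and each library left out. Figures were drawn with matplotlib 3.10.9.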

Additional observations from a re-analysis of the deposited data

How the results depend on the processing

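With all libraries, 10202 genes were called, and the settings other than leaving out a library gave 9553 to 11290 genes. Erythroid list calls ran from 36 to 40 higher and from 15 to 19 lower under those settings, and the summed globin ratio was 3.67 on the log2 scale, 3.67 to 3.79 under other scaling and 3.42 to 4.14 with 1 library left out. Without control replicate 1 the log2 ratio of Hbb-bh1 was 3.83 in place of 3.17. Tfrc was called under every setting run, at 0.87 to 1.06, and 0.88 to 1.03 with 1 library left out. The call of Gata1 was lost with limma-voom (log2 fold change 1.23, adjusted p = 0.0707) and with a block for the title number range (0.935, 0.162), and its values with 1 library left out ran from 0.73 to 1.80. With the same block Alas2 (-0.71, 0.0430) and Slc4a1 (2.51, 0.0333) were called, and with 1 library left out they ran from -2.61 to -0.30 and from 0.59 to 1.95. The block gives no weight to control replicate 2, which is alone in its range. Mb, not called, ran from -2.50 to 0.19 and turned positive without control replicate 1. Pecam1, not called, turned to 0.0147 with upper-quartile factors and ran from -0.204 to 0.0574 with 1 library left out, positive without RANKL replicate 1. The cause of these shifts was not tested. The median log2 fold change of all genes was -0.02 and 0.08 with upper-quartile factors. No paired analysis was possible because the labels give no replicate numbers that match libraries across groups, and the title range groups libraries without pairing them. Control libraries held 10 to 22 embryonic globin reads, which limits every ratio against them, and Klf1 was near the floor of 3 reads in control libraries.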
